A study of Mus musculus with 9 samples.

Results

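Cytochromes P450 of families 1 to 4, carboxylesterases, UDP-glucuronosyltransferases and sulfotransferases were examined in mouse pancreatic islets. The members were all gene symbols of the islet count table that begin with Cyp1, Cyp2, Cyp3 or Cyp4 and a further letter, or with Ces1, Ces2, Ces3, Ces5, Ugt1, Ugt2, Ugt3 or Sult. This gave 138 members among 23329 gene symbols: 83 Cyp, 17 Ces, 20 Ugt and 18 Sult genes. The libraries held polyadenylated RNA of islets from male mice, 5 labelled Pdx1A4 (mutants) and 4 labelled Pdx1+/- (controls). Pdx1 encodes a transcription factor of the beta cell, the controls lack 1 normal copy by their label, and the labels do not explain the A4 allele, any driver or the age of the mice. The labels name no animal behind any library, and the p-values therefore cover variation among libraries only, some of which may be technical. Libraries held 7186462 to 9163253 counts in mutants and 6092010 to 7375376 counts in controls.

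Enzymes of these families act in sequence on foreign compounds, steroids, bile acids and lipids. P450 enzymes, which use haem and electrons from a reductase, oxidise the substrate, carboxylesterases cleave ester bonds, and the transferases then attach glucuronic acid or sulfate so that the product can be excreted. Liver and intestine hold the highest levels of most members, and the nuclear receptors CAR and PXR and the aryl hydrocarbon receptor control many of the genes.

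Levels are given as CPM, counts scaled to a common library total, after TMM scaling of the library sizes, and differences as log2 fold changes of mutant over control. Pdx1 itself stood at 4.18 to 19.9 CPM in mutants and at 23.8 to 36.0 CPM in controls, with a log2 fold change of -1.18 ± 0.40 (SE), and every mutant lay below every control. The libraries also differed in markers of pancreatic cell types. A list of 30 acinar markers, genes of the enzyme-secreting exocrine cells, made up 15.6% to 38.5% of scaled counts in mutants and 2.67% to 6.16% in controls, and 28 of the 30 were higher in mutants. Ductal markers made up 1.82% to 3.11% in mutants and 0.496% to 1.39% in controls, with 9 of 17 tested genes higher and 1 lower. A list of 30 endocrine secretory markers made up 0.0315% to 1.4% in mutants and 2.39% to 3.05% in controls, with 0 genes higher and 7 lower. The 7 islet hormone genes made up 0.0853% to 7.68% in mutants and 13.3% to 21.8% in controls, and 0 of the 7 were called in either direction. Mutant 2, at 0.0853%, and mutant 3 had the lowest hormone shares, so values without these libraries are given beside the results they moved most. In bulk samples, fewer cells of a type and less RNA per cell cannot be told apart.

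Most family members had few or no counts. Of the 138 members, 60 had no count in any of the 9 libraries, 33 had 1 to 19 counts over all libraries, and 17 had 20 or more counts but did not pass the filter on low counts. The filter asks for about 1.36 CPM in at least 4 libraries and left 28 members among 12402 genes. The silent members included 26 of 51 Cyp2 genes, 7 of 9 Cyp3 genes and 7 of 8 Cyp4a genes, the last a subfamily that hydroxylates fatty acids in mouse liver. All of the 10 Cyp2d genes, a subfamily known for drug oxidation, failed the filter, and 5 of them had no count. A count of 0 in a library allows up to 3 counts, which at the smallest total of 6092010 lies below the filter.

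**Figure D1:**
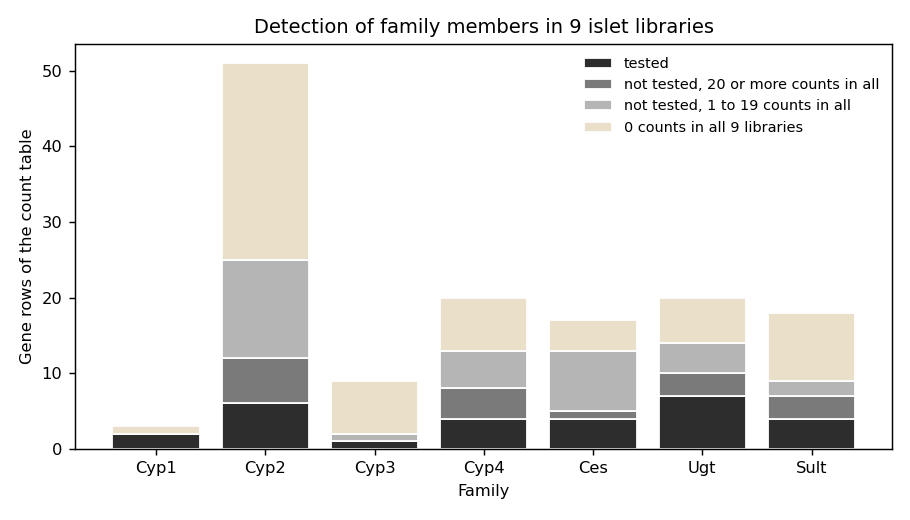
Number of gene symbols per family (vertical axis, genes of the count table) that were at 0 in all 9 islet libraries, had counts but did not pass the filter, or were tested. Silent members were the larger share of the Cyp2 and Cyp3 families (26 of 51 and 7 of 9), while 7 of 20 Ugt genes were tested.

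Among the 28 tested members, 14 were higher in mutants than in controls, 1 was lower and 13 were not called, at an adjusted p under 0.05. Over all genes tested, 20.6% were called higher, 11.8% lower and 32.4% in either direction, against 50% higher and 3.57% lower among the tested members. Every mutant library lay above every control in 11 members and below every control in 4, against 18.5% and 14.7% of all genes tested. The median log2 fold change was 1.06 among tested members and 0.04 among all genes tested. The filter shaped this set, since 10 tested members, including 7 of the 14 called higher, were over its threshold in fewer than 4 controls. The counts therefore describe the tested members and not the families as a whole. In the fit with no filter, 13 of 78 members were called higher, against 12% of 17564 genes. Of the 110 members that did not pass the filter, 50 had counts, and the 17 of these with 20 or more counts are named with their families.

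**Figure D2:**
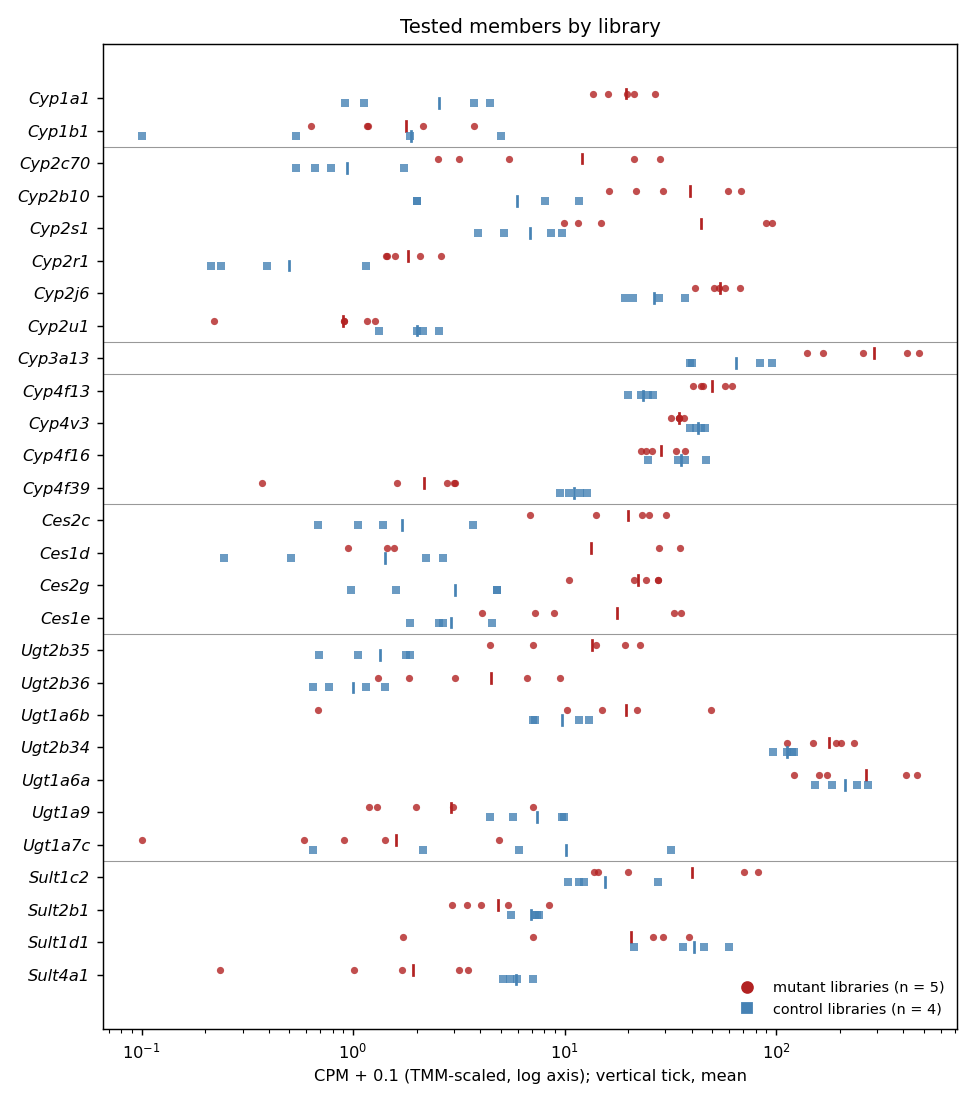
CPM plus 0.1 (log axis) of the 28 tested members in each mutant and control library, with vertical ticks for the group means. Cyp3a13, Ugt1a6a and Ugt2b34 reach the highest levels, and mutants 2 and 3 often lie at the upper or lower end of the mutants.

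**Figure D3:**
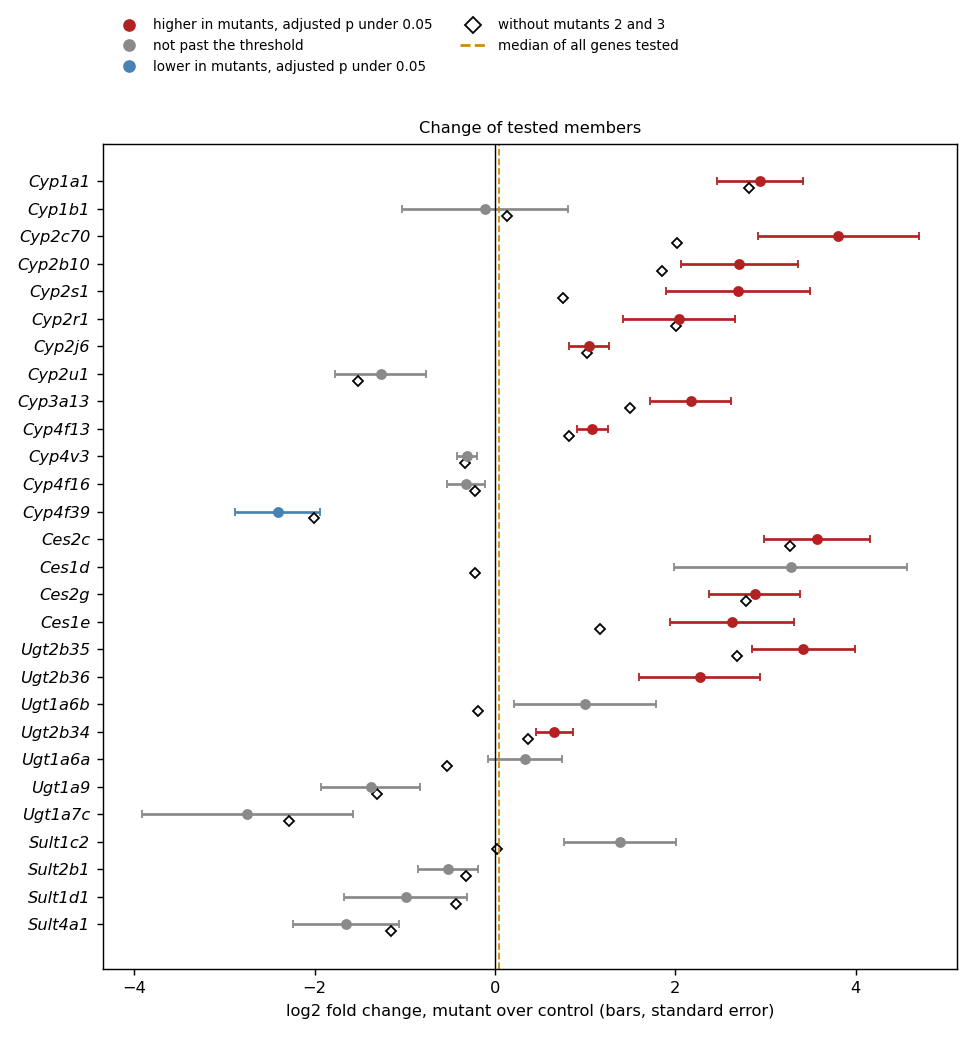
Log2 fold change of mutant over control for the tested members, with bars for the standard error, open diamonds for the fit without mutants 2 and 3 and a dashed line at the median of all genes tested. The calls run from Cyp2c70 at 3.81 to Cyp4f39 at -2.41.

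Calls depended on the libraries and the tool used. Of the 14 rises, limma-voom did not call Ces1e, Cyp2c70, Cyp2s1 and Ugt2b36. DESeq2 called 6 members lower, namely Cyp4f39, Cyp2u1, Cyp4v3, Sult4a1, Ugt1a7c and Ugt1a9. Without mutants 2 and 3 together, 8 members were higher and 2 (Cyp4f39 and Sult4a1) were lower, and the 8 were all among the 14 (Ces2c, Ces2g, Cyp1a1, Cyp2c70, Cyp2j6, Cyp3a13, Cyp4f13 and Ugt2b35). Without control 1, 9 members were called higher. Under RLE scaling 13 members were higher and 3 (Cyp4f39, Cyp4v3 and Sult4a1) were lower, and 51.8% of all calls were rises, against 63.6% under TMM scaling. The single lower call became 3 without mutant 1 and 2 without mutant 2, mutant 4, control 2 or control 4. With the mean level of 30 endocrine secretory markers as a covariate, 5 were higher (Ces2c, Ces2g, Cyp1a1, Cyp4f13 and Ugt2b35) and 0 were lower, with 581 and 80 genes called higher and lower over the whole table. With the acinar score as a covariate, 0 of the 12402 genes were called by edgeR and 426 had an unadjusted p under 0.05. Group membership accounted for 92.8% of the variance of the acinar score, so group and acinar level cannot be told apart in these libraries.

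The P450 genes of families 1 to 3 gave 7 of the 14 rises. Cyp1a1, an oxidase of polycyclic aromatic compounds and a classic target of the aryl hydrocarbon receptor, had 16.0, 21.2, 19.6, 26.6 and 13.5 CPM in mutants 1 to 5, against 0.820, 1.02, 3.63 and 4.36 CPM in controls 1 to 4. All mutants lay above all controls, and controls 3 and 4 were higher than controls 1 and 2. The difference passed the test (log2 fold change 2.94 ± 0.48 (SE), edgeR adjusted p = 0.00337) and was 2.82 without mutants 2 and 3. Its relative Cyp1b1, which oxidises oestrogens and polycyclic compounds, had 3.63, 1.08, 1.06, 2.05 and 0.535 CPM in mutants 1 to 5, against 0, 0.439, 1.76 and 4.92 CPM in controls 1 to 4. The groups overlapped and the test called no change (-0.11 ± 0.92 (SE), edgeR adjusted p = 0.935). The value was 0.13 without mutants 2 and 3 and 1.14 without control 4. Ahr, which encodes the receptor, had a log2 fold change of 0.73 ± 0.49 (SE) and was not called (edgeR adjusted p = 0.263).

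Cyp2b10, a mouse P450 induced through CAR in liver, had 29.2, 68.5, 58.9, 21.7 and 16.1 CPM in mutants 1 to 5, against 1.91, 1.90, 11.6 and 7.94 CPM in controls 1 to 4. Mutants 2 and 3 were the highest, and every mutant exceeded every control. The rise passed the test (log2 fold change 2.71 ± 0.65 (SE), edgeR adjusted p = 0.0134), but without mutants 2 and 3 it was 1.85 with an edgeR adjusted p of 0.0503. Nr1i3, the gene for CAR, did not pass the filter and had 3, 3, 0, 3 and 1 counts in mutants 1 to 5, against 1, 3, 1 and 3 counts in controls 1 to 4. Nr1i2, the gene for PXR, also failed the filter, with 8, 3, 8, 2 and 6 counts in mutants 1 to 5, against 0, 2, 1 and 1 counts in controls 1 to 4.

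Cyp2c70, the mouse enzyme that makes muricholic acids from chenodeoxycholic acid in liver, lies at chr19:40153353-40187333 (GRCm38, minus strand). It had 2.42, 28.2, 21.2, 3.07 and 5.35 CPM in mutants 1 to 5, against 0.684, 0.439, 1.64 and 0.559 CPM in controls 1 to 4. Mutants 2 and 3 stood far above the other mutants, and the lowest mutant was still above the highest control. The difference passed the test (log2 fold change 3.81 ± 0.89 (SE), edgeR adjusted p = 0.0120), was 2.02 without mutants 2 and 3 (edgeR adjusted p = 0.0283), and was not called by limma-voom (adjusted p = 0.119) or with the endocrine covariate (edgeR adjusted p = 0.223). Cyp2c70 was the 1 tested member of 16 Cyp2c genes, of which 8 had no count.

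Cyp2c38, another member of that subfamily, had 0, 25, 29, 0 and 0 counts in mutants 1 to 5, against 0, 0, 0 and 0 counts in controls 1 to 4, so its counts came from mutants 2 and 3 alone. Cyp2c65 had 9, 65, 34, 9 and 1 counts in mutants 1 to 5, against 4, 0, 7 and 3 counts in controls 1 to 4. Cyp2c68 had 0, 16, 11, 0 and 0 counts in mutants 1 to 5, against 3, 1, 7 and 0 counts in controls 1 to 4. These low counts were also highest in mutants 2 and 3. In the fit without a filter none of these 3 genes was called (edgeR adjusted p = 0.0946 for Cyp2c38, 0.0778 for Cyp2c65 and 0.595 for Cyp2c68). Cyp2c44 had 3 to 11 counts in mutants and 2 to 7 in controls, so the groups overlapped.

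Cyp2s1, a P450 mostly of epithelia outside the liver, had 9.81, 95.3, 90, 14.8 and 11.5 CPM in mutants 1 to 5, against 5.06, 3.80, 9.60 and 8.49 CPM in controls 1 to 4. Mutants 2 and 3 stood far above the rest, and mutant 1 lay just above control 3. The rise passed the test (log2 fold change 2.70 ± 0.80 (SE), edgeR adjusted p = 0.0288) but failed it without mutant 2, mutant 3 or any 1 of the 4 controls (highest edgeR adjusted p 0.0796). It was 0.76 without mutants 2 and 3 (edgeR adjusted p = 0.145). The gene overlaps another on the opposite strand, whose reads could be counted with it.

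Cyp2j6, of a subfamily that epoxidises arachidonic acid, showed a smaller but more even shift. It had 41.4, 51.0, 53.4, 67.4 and 57.4 CPM in mutants 1 to 5, against 20.9, 27.7, 37.2 and 19.3 CPM in controls 1 to 4. No mutant overlapped a control, the lowest mutant being just above the highest control (log2 fold change 1.04 ± 0.22 (SE), edgeR adjusted p = 0.00864). The difference was 1.02 without mutants 2 and 3 (edgeR adjusted p = 0.0242). Cyp2r1, a vitamin D 25-hydroxylase, was low, at 1.33, 1.35, 1.97, 2.49 and 1.47 CPM in mutants 1 to 5, against 0.137, 0.293, 1.05 and 0.112 CPM in controls 1 to 4. The difference passed the test (log2 fold change 2.04 ± 0.62 (SE), edgeR adjusted p = 0.0299) but did not hold when control 1, 2 or 4 was dropped (edgeR adjusted p up to 0.0869), and the gene did not pass the filter without mutant 1, 3, 4 or 5. Without mutants 2 and 3 it was 2.01 (edgeR adjusted p = 0.0673). Cyp2u1, a fatty acid hydroxylase, had 0.121 to 1.17 CPM in mutants and 1.23 to 2.46 CPM in controls, and was not called (log2 fold change -1.27 ± 0.51 (SE), edgeR adjusted p = 0.0732). It also overlaps a gene on the opposite strand.

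Cyp2d22 had 2 to 14 counts in mutants and 3 to 16 in controls, and Cyp2j9 had 1 to 12 in mutants and 1 to 2 in controls. Both fell short of the filter. The Cyp2 family as a whole summed to 89.5 to 266 CPM in mutants and 34.2 to 68.0 CPM in controls.

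Cyp3a13, the main Cyp3a gene of mouse tissues outside the liver, was the P450 of highest level per length, at 98.2 CPM per kilobase in mutants and 21.9 in controls. It had 140, 472, 414, 167 and 258 CPM in mutants 1 to 5, against 39.8, 95.7, 84.1 and 39.2 CPM in controls 1 to 4. All mutants exceeded all controls, with mutants 2 and 3 the highest. The rise (log2 fold change 2.17 ± 0.45 (SE), edgeR adjusted p = 0.00776) was 1.5 without mutants 2 and 3 (edgeR adjusted p = 0.0188). It held nearly all of the Cyp3 counts, and 7 of 9 Cyp3 genes were at 0.

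Of 4 tested Cyp4 genes 1 rose, 1 fell and 2 were not called, and their summed level was 110 to 122 CPM in mutants and 105 to 125 CPM in controls. Cyp4f13, of a subfamily that hydroxylates fatty acids and leukotrienes, rose. It had 40.3, 61.6, 57.2, 44.0 and 45.0 CPM in mutants 1 to 5, against 23.0, 26.2, 24.8 and 19.9 CPM in controls 1 to 4. The groups were clear of each other, and mutants 2 and 3 were the highest (log2 fold change 1.08 ± 0.17 (SE), edgeR adjusted p = 0.00290). It was 0.82 without mutants 2 and 3 (edgeR adjusted p = 0.00899).

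Cyp4f39, whose human orthologue hydroxylates very long fatty acids of the skin barrier, was the 1 member that fell. It had 2.91, 0.270, 1.52, 2.93 and 2.68 CPM in mutants 1 to 5, against 9.43, 10.4, 12.6 and 11.7 CPM in controls 1 to 4. Every mutant lay below every control, and mutant 2 was the lowest. The fall passed the test (log2 fold change -2.41 ± 0.47 (SE), edgeR adjusted p = 0.00630) and was -2.01 without mutants 2 and 3, but was not called with the endocrine covariate (-1.16, edgeR adjusted p = 0.1).

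Cyp4f16 had a log2 fold change of -0.32 ± 0.21 (SE) and overlapping groups (edgeR adjusted p = 0.265). Cyp4v3, the mouse counterpart of the human fatty acid hydroxylase gene of Bietti dystrophy, had 36.7, 31.9, 34.6, 34.7 and 34.7 CPM in mutants 1 to 5, against 44.0, 41.9, 46.0 and 38.9 CPM in controls 1 to 4. Every mutant was below every control by a narrow margin, and the difference missed the threshold (log2 fold change -0.31 ± 0.11 (SE), edgeR adjusted p = 0.0578), though it passed under RLE scaling (edgeR adjusted p = 0.0223). RLE scaling moved the median of all genes by -0.10 on the log2 scale. Among Cyp4 genes that failed the filter, Cyp4f17 had 2 to 11 counts in mutants and 9 to 18 in controls. The groups also overlapped in Cyp4b1, with 2 to 18 counts in mutants and 1 to 10 in controls. Cyp4f18 and the pseudogene Cyp4f41-ps had at most 6 counts in any mutant and at most 7 in any control.

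Of 17 carboxylesterase genes 4 were tested, and 3 of these were called higher, against 20.6% of all genes tested. Ces2c was over the filter threshold in 5 mutants and 2 controls, and Ces2g in 5 mutants and 3 controls. The filter therefore shaped this count. The summed level of the family was 25.9 to 120 CPM in mutants and 3.80 to 14.3 CPM in controls. Ces2c, an esterase that hydrolyses lipid esters and drugs, lies at chr8:104847068-104854483 on the plus strand and Ces2g, of the same gene cluster, at chr8:104961718-104969537 (GRCm38). Ces2c had 6.78, 24.9, 23.1, 30.0 and 13.9 CPM in mutants 1 to 5, against 0.957, 0.585, 1.29 and 3.58 CPM in controls 1 to 4. Every mutant lay above every control, and mutant 4 rather than mutant 2 was the highest. The rise passed the test (log2 fold change 3.57 ± 0.59 (SE), edgeR adjusted p = 0.00349), at 3.27 without mutants 2 and 3 and 3.11 with the endocrine covariate (edgeR adjusted p = 0.0334). Only 63.9% of its 50-base stretches are unique among transcripts, and 32.7% are shared with the pseudogene Ces2d-ps, so its counts may hold reads of that copy.

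Ces2g had 10.4, 21.3, 24.1, 27.5 and 27.6 CPM in mutants 1 to 5, against 1.5, 0.878, 4.68 and 4.69 CPM in controls 1 to 4. Mutants 4 and 5 were the highest, mutant 1 was the lowest mutant, and no control reached it. The difference (log2 fold change 2.88 ± 0.50 (SE), edgeR adjusted p = 0.00419) was 2.78 without mutants 2 and 3. Both genes had their highest control values in controls 3 and 4.

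The tested Ces1 esterases were highest in mutants 2 and 3. Ces1e, also known as egasyn, had 7.14, 35.6, 32.8, 3.95 and 8.83 CPM in mutants 1 to 5, against 2.46, 1.76, 4.45 and 2.57 CPM in controls 1 to 4. Mutant 4 overlapped the controls. The rise passed the test (log2 fold change 2.63 ± 0.69 (SE), edgeR adjusted p = 0.0186) but failed it when control 1 or 2 was dropped (edgeR adjusted p up to 0.0559), and without mutants 2 and 3 it was 1.17 (edgeR adjusted p = 0.0720). Ces1d, a triacylglycerol hydrolase of liver and fat, had 0.848, 35.0, 27.8, 1.46 and 1.34 CPM in mutants 1 to 5, against 0.410, 0.146, 2.11 and 2.57 CPM in controls 1 to 4. The difference was not called (log2 fold change 3.28 ± 1.29 (SE), edgeR adjusted p = 0.0732) and was -0.22 without mutants 2 and 3, while DESeq2 (adjusted p = 0.0122) and edgeR without mutant 1 (adjusted p = 0.0411) called it higher. Ces1g, which failed the filter, had 2, 13, 14, 2 and 0 counts in mutants 1 to 5, against 1, 0, 0 and 2 counts in controls 1 to 4.

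**Figure D4:**
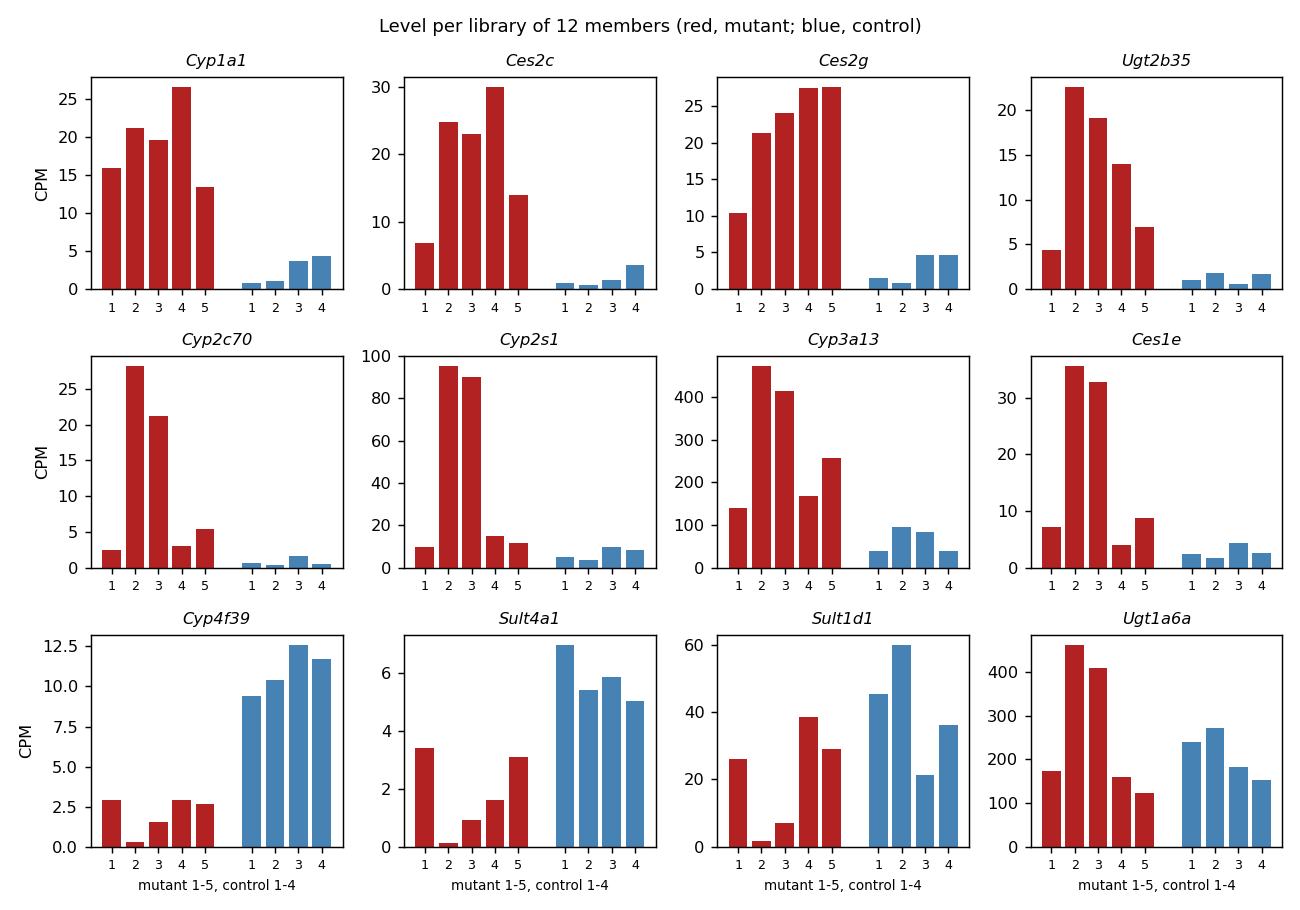
CPM of 12 members in mutants 1 to 5 (left, red) and controls 1 to 4 (right, blue), 1 bar per library, each panel with its own vertical axis from 0. Cyp1a1, Ces2c and Ces2g are high in all mutants, whereas Cyp2c70, Cyp2s1 and Ces1e are high mainly in mutants 2 and 3.

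The first 250 bases upstream of the RefSeq gene start are shown for 5 members, namely Cyp2c70 and Ces2c as leading genes of the families, Ces2g to set beside Ces2c, Cyp1a1 as a known receptor target, and Cyp4f39 as the member that fell. Sequences are from RefSeq (GRCm38.p6), 5′ to 3′ on the gene's strand, with starts that can differ from the GENCODE gene bounds, and 24 of the 28 tested members matched. Capitals mark these letters on either strand: GCGTG (aryl hydrocarbon receptor core), AGGTCA (nuclear receptor half-site), TAATTA (homeodomain core) and CAAAGTCCA (HNF4A core). The last was added after the Cyp2c70 sequence was seen. The regions are chr19:40187287-40187536 on the minus strand for Cyp2c70, and on the plus strand chr8:104846818-104847067 for Ces2c, chr8:104961468-104961717 for Ces2g, chr9:57697363-57697612 for Cyp1a1 and chr17:32452473-32452722 for Cyp4f39.
Cyp2c70: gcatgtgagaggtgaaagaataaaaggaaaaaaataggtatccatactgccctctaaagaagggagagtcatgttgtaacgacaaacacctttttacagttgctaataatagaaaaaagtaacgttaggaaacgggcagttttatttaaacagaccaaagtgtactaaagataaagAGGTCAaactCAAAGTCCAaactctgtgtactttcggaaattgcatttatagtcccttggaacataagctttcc
Ces2c: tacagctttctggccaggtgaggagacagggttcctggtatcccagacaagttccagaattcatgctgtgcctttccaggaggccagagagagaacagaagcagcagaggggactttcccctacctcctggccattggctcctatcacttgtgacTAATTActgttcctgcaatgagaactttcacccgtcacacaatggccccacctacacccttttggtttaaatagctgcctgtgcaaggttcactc
Ces2g: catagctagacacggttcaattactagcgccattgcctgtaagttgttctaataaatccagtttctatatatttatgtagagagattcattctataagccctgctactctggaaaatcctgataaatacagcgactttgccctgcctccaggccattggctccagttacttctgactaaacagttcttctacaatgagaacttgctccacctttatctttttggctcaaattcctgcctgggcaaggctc
Cyp1a1: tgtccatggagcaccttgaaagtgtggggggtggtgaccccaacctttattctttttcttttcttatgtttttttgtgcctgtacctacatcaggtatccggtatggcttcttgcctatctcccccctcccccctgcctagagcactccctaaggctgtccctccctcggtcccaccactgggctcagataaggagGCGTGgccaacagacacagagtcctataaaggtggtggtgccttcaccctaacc
Cyp4f39: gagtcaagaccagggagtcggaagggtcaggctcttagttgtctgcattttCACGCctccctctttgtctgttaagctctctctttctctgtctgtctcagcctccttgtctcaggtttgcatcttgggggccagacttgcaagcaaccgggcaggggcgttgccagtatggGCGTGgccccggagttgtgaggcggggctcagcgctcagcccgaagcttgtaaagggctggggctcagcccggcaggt

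The Cyp2c70 window held AGGTCA 74 bases and CAAAGTCCA 64 bases upstream of the start, counted to the first base of each match, with no overlap between them. Cyp1a1 held GCGTG 54 bases upstream, Ces2c held TAATTA 95 bases upstream, and the Ces2g window held none of these letters. Cyp4f39 held GCGTG at 78 bases and, on the opposite strand, at 199 bases. GCGTG stood in 2 of the 14 windows of members called higher, against 28.2% of 27025 promoters of this length. AGGTCA stood in 3 of the 14, against 13.8% of promoters, and TAATTA in 2, against 4.90%. CAAAGTCCA stood in 1 of the 14, that of Cyp2c70, and in 0.400% of promoters. These letters were chosen from the Cyp2c70 sequence, so that match was fixed in advance and the 2 shares cannot be compared. The Ces2c and Ces2g windows were identical at 150 of 272 aligned positions (55.1%). Of the 9 windows of members not called, GCGTG stood in 4, AGGTCA in 2, TAATTA in 2 and CAAAGTCCA in 0. A match is a description of letters and not a binding site.

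All 3 tested Ugt2b genes were called higher by edgeR, which called none of the 4 tested Ugt1a genes. The share called higher over all genes tested was 20.6%. Ugt2b36 was over the filter threshold in 4 mutants and 0 controls, and Ugt2b35 in 5 mutants and 2 controls. The filter therefore shaped this contrast. The Ugt2b enzymes attach glucuronic acid to steroids, bile acids and drugs. Ugt2b35 had 4.36, 22.6, 19.1, 14.0 and 6.96 CPM in mutants 1 to 5, against 0.957, 1.76, 0.586 and 1.68 CPM in controls 1 to 4. The groups were separate, mutants 2 and 3 being the highest. The rise passed the test (log2 fold change 3.42 ± 0.57 (SE), edgeR adjusted p = 0.00358) and was 2.69 without mutants 2 and 3 (edgeR adjusted p = 0.00935). Ugt2b34 was the more abundant per length, at 41.3 CPM per kilobase in mutants and 26.1 in controls. It had 112, 234, 203, 192 and 150 CPM in mutants 1 to 5, against 119, 122, 113 and 96.5 CPM in controls 1 to 4. Mutant 1 overlapped the controls (log2 fold change 0.66 ± 0.21 (SE), edgeR adjusted p = 0.0361). That call was lost in 7 of 9 fits that left out a library (mutant 2, mutant 3, mutant 4 or any control, highest edgeR adjusted p 0.0993) and under RLE scaling (edgeR adjusted p = 0.0615). Without mutants 2 and 3 it was 0.37 (edgeR adjusted p = 0.204). Ugt2b36 had 1.21, 9.44, 6.52, 2.93 and 1.74 CPM in mutants 1 to 5, against 0.547, 1.32, 1.05 and 0.671 CPM in controls 1 to 4. Mutant 1 overlapped the controls, and the call (log2 fold change 2.27 ± 0.67 (SE), edgeR adjusted p = 0.0274) did not hold when control 1, 3 or 4 was dropped (edgeR adjusted p up to 0.0786). It did not pass the filter without mutant 2, 3, 4 or 5 or without mutants 2 and 3 together. Ugt2b5, which did not pass the filter, had 2, 44, 27, 11 and 10 counts in mutants 1 to 5, against 0, 0, 0 and 5 counts in controls 1 to 4. It was called higher in the fit without a filter (log2 fold change 3.91, edgeR adjusted p = 0.0347). Only 58.3% of the 50-base stretches of Ugt2b5 are unique, and 34.8% are shared with Ugt2b38, which had no count in any library.

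The Ugt1a genes are built from first exons of their own joined to shared later exons, so reads of the shared part cannot be assigned to 1 member. Ugt1a6a, an enzyme for phenols, was the member of highest level per length, at 111 CPM per kilobase in mutants and 88.7 in controls, although 47.9% of its 50-base stretches are unique. It had 174, 463, 410, 159 and 122 CPM in mutants 1 to 5, against 240, 272, 183 and 152 CPM in controls 1 to 4. Mutants 2 and 3 were high and mutant 5 lay below every control, so the groups overlapped (log2 fold change 0.33 ± 0.41 (SE), edgeR adjusted p = 0.555). The difference was -0.53 without mutants 2 and 3 (edgeR adjusted p = 0.128). Ugt1a6a took 88.3% to 94.7% of Ugt1a counts in mutants and 77.0% to 93.3% in controls. Ugt1a6b had 0.585 to 49.1 CPM in mutants and 6.97 to 12.9 CPM in controls and was not called (log2 fold change 1.0 ± 0.79 (SE), edgeR adjusted p = 0.336), with a value of 0.26 without mutant 2 and -0.19 without mutants 2 and 3. The share of unique 50-base stretches was 20.2% for Ugt1a6b, 46.3% for Ugt1a7c and 38.0% for Ugt1a9. Ugt1a7c took 16.0% of the Ugt1a counts in control 4, and up to 3.48% in any mutant. It was not called (log2 fold change -2.75 ± 1.17 (SE), edgeR adjusted p = 0.0908), and its value was -0.94 without control 4. DESeq2 called it lower (adjusted p = 0.0304). Ugt1a9 was not called either (log2 fold change -1.38 ± 0.55 (SE), edgeR adjusted p = 0.0754), but DESeq2 (adjusted p = 0.0259) and limma-voom (adjusted p = 0.0311) called it lower, and so did edgeR without mutant 4 (-2.10, adjusted p = 0.0110). Ugt1a1, the bilirubin enzyme, failed the filter, with 0, 18, 26, 0 and 0 counts in mutants 1 to 5, against 2, 0, 4 and 17 counts in controls 1 to 4. Ugt2a3 had 0, 16, 9, 0 and 0 counts in mutants 1 to 5, against 0, 5, 0 and 0 counts in controls 1 to 4.

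The sulfotransferases showed no called change in 4 tested genes, and their summed level was 52.3 to 89.1 CPM in mutants and 46.3 to 105 CPM in controls. Sult1c2, of a cytosolic subfamily that sulfates phenols, had 13.7, 81.7, 70.7, 14.3 and 19.9 CPM in mutants 1 to 5, against 10.3, 27.4, 12.2 and 11.6 CPM in controls 1 to 4. Mutants 2 and 3 stood above all others, while the remaining mutants overlapped the controls (log2 fold change 1.39 ± 0.62 (SE), edgeR adjusted p = 0.107), and without mutants 2 and 3 the difference was 0.02. Sult1d1, a catecholamine sulfotransferase of the mouse, had 26.2, 1.62, 6.98, 38.6 and 29.0 CPM in mutants 1 to 5, against 45.4, 60.0, 21.2 and 36.2 CPM in controls 1 to 4. Mutants 2 and 3 were the lowest of all, and the groups overlapped (log2 fold change -0.99 ± 0.68 (SE), edgeR adjusted p = 0.274). Sult2b1, which sulfates cholesterol, had a log2 fold change of -0.52 ± 0.33 (SE) and was not called (edgeR adjusted p = 0.233). Sult4a1, a brain member with no firmly known substrate, had 3.39, 0.135, 0.910, 1.61 and 3.08 CPM in mutants 1 to 5, against 6.97, 5.41, 5.86 and 5.03 CPM in controls 1 to 4. Every mutant lay below every control. The difference missed the threshold (log2 fold change -1.65 ± 0.59 (SE), edgeR adjusted p = 0.0554) and passed it under RLE scaling (edgeR adjusted p = 0.0441), by DESeq2 (adjusted p = 0.0120) and by limma-voom (adjusted p = 0.0239). With the endocrine covariate the log2 fold change of Sult4a1 was 0.0 (edgeR adjusted p = 0.981).

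Of the low Sult genes, Sult1b1 had 5, 3, 1, 6 and 3 counts in mutants 1 to 5, against 9, 19, 10 and 6 counts in controls 1 to 4. Sult1a1, a phenol sulfotransferase, had 1, 17, 9, 2 and 1 counts in mutants 1 to 5, against 1, 0, 2 and 1 counts in controls 1 to 4. Their highest values stood in opposite groups. Sult6b1 had at most 1 count in any mutant, and 13 counts in control 2. In the fit without a filter none of the 3 was called (edgeR adjusted p = 0.0750 for Sult1b1, 0.113 for Sult1a1 and 0.0689 for Sult6b1).

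In 9 of the 14 members called higher, mutants 2 and 3 were the 2 highest mutants, against 51.4% of all 2560 genes called higher. Of 24 markers of hepatocytes, in which these families are abundant, 9 were tested. Itih4 was higher in mutants, and Fga, Fgg and Ambp were lower, while Serpina3k and Cyp7a1 were at 0 in all libraries. The hepatocyte list summed to 97.0 to 161 CPM in mutants and 125 to 197 CPM in controls. Fgb contributed most to this sum, which can hide opposite patterns. Itih4 (72.1 and 65.5 CPM) and Alb (11.9 and 6.83 CPM) were highest in mutants 2 and 3. Fgb was lowest there, at 0.674 and 3.19 CPM. Alb and Fgb were not called (edgeR adjusted p = 0.0573 and 0.167). Enterocyte markers summed to 134 to 247 CPM in mutants and 142 to 190 CPM in controls, with Sis, Alpi and Cdx1 at 0. Of 8 tested enterocyte genes Tff3 was higher in mutants, and Anpep and Mttp were lower. The part of the acinar, ductal and endocrine marker differences in the members' values was not tested beyond the covariate fits above.

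Genes that serve or regulate these enzymes, or act beside them as other enzymes or transporters, were taken from 7 lists. Of 78 tested genes 30 (38.5%) were higher and 5 (6.41%) lower, against 20.6% and 11.8% of all genes tested. Ugdh, the dehydrogenase that makes UDP-glucuronic acid, had 945, 2096, 1912, 1531 and 932 CPM in mutants 1 to 5, against 232, 346, 284 and 248 CPM in controls 1 to 4. All mutants were far above all controls (log2 fold change 2.42 ± 0.30 (SE), edgeR adjusted p = 0.00167), and without mutants 2 and 3 the difference was 1.98 (edgeR adjusted p = 0.00266). Leaving out 1 library gave 20 to 30 higher and 4 to 10 lower, with 10 lower without mutant 1 and 9 without mutant 2. Papss1, which makes the sulfate donor PAPS, averaged 27.2 ± 4.04 CPM in mutants and 47.7 ± 4.94 CPM in controls (SD, n = 5 and 4), and it fell, with a log2 fold change of -0.81 ± 0.14 (SE), edgeR adjusted p = 0.00464. Papss2, the second such enzyme, averaged 57.9 ± 49.0 CPM in mutants and 211 ± 45.0 CPM in controls (SD, n = 5 and 4), and it missed the threshold although no mutant overlapped a control (log2 fold change -1.86 ± 0.73 (SE), edgeR adjusted p = 0.0734). DESeq2 (adjusted p = 0.0172), limma-voom (adjusted p = 0.0423) and edgeR without mutants 2 and 3 (adjusted p = 0.0206) called it lower. With the endocrine covariate the log2 fold change of Papss2 was 0.1 (edgeR adjusted p = 0.855). Slc35d2, a nucleotide sugar transporter, averaged 25.4 ± 10.1 CPM in mutants and 8.79 ± 2.39 CPM in controls (SD, n = 5 and 4) and rose, with a log2 fold change of 1.52 ± 0.34 (SE), edgeR adjusted p = 0.00980.

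Partners in electron transfer were called in both directions, while few genes of haem synthesis were called. Por, the reductase of microsomal P450 enzymes, averaged 171 ± 12.5 CPM in mutants and 172 ± 39.5 CPM in controls (SD, n = 5 and 4), with a log2 fold change of -0.01 ± 0.16 (SE), edgeR adjusted p = 0.958. Fdx1, the ferredoxin that serves mitochondrial P450 enzymes, averaged 42.4 ± 7.43 CPM in mutants and 19.9 ± 2.13 CPM in controls (SD, n = 5 and 4) and rose, with a log2 fold change of 1.09 ± 0.16 (SE), edgeR adjusted p = 0.00256. Of 10 tested electron partners, 4 rose (Fdx1, Fdxr, Pgrmc1 and Cyb5r1) and Pgrmc2 fell. The Fdxr call was lost without mutant 3, without control 1 and without mutants 2 and 3 together (edgeR adjusted p = 0.0927 for the last). With the replicate number as a block, the Pgrmc1 call was lost (edgeR adjusted p = 0.0539). Of 8 tested haem synthesis genes, 2 rose and 0 fell, against 20.6% and 11.8% of all genes tested. Alad rose by 1.01 and Urod by 0.48 on the log2 scale. The Urod call was lost without mutant 2, 3 or 4 or control 1, 2 or 4 and under RLE scaling (edgeR adjusted p = 0.0677).

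Regulators of these families included 8 higher of 15 tested, against 20.6% of all genes tested. Nr1h4, the bile acid receptor gene, was lower. Hnf4a, a nuclear receptor of liver, gut and islets, had 20.8, 61.6, 56.0, 21.5 and 52.6 CPM in mutants 1 to 5, against 13.8, 10.8, 10.1 and 12.4 CPM in controls 1 to 4. All mutants exceeded all controls, with mutants 2, 3 and 5 high (log2 fold change 1.85 ± 0.36 (SE), edgeR adjusted p = 0.00630). Nr0b2, a corepressor of bile acid genes, averaged 20.7 ± 12.9 CPM in mutants and 2.50 ± 0.696 CPM in controls (SD, n = 5 and 4), with a log2 fold change of 3.04 ± 0.51 (SE), edgeR adjusted p = 0.00351. Nr5a2, a nuclear receptor also known for its role in acinar cells, averaged 12.8 ± 6.72 CPM in mutants and 2.17 ± 0.206 CPM in controls (SD, n = 5 and 4), with a log2 fold change of 2.55 ± 0.42 (SE), edgeR adjusted p = 0.00336. Cebpa, a transcription factor of liver and fat, averaged 9.17 ± 2.75 CPM in mutants and 1.83 ± 0.544 CPM in controls (SD, n = 5 and 4), with a log2 fold change of 2.31 ± 0.33 (SE), edgeR adjusted p = 0.00242. Without mutants 2 and 3 the log2 fold changes were 1.36 for Hnf4a, 2.12 for Nr0b2, 1.89 for Nr5a2 and 1.95 for Cebpa.

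Among other enzymes of drug metabolism, 9 of 16 tested were higher, against 20.6% of all genes tested. Maob, a monoamine oxidase, was lower. Cyb5r1, Nr1h4, Maob and the hepatocyte and enterocyte genes were named after their values were seen. Ephx1, the microsomal epoxide hydrolase, averaged 176 ± 45.4 CPM in mutants and 46.0 ± 12.5 CPM in controls (SD, n = 5 and 4), with a log2 fold change of 1.94 ± 0.25 (SE), edgeR adjusted p = 0.00185. The carbonyl reductase Cbr3 rose by 2.61 and its relative Cbr1 by 1.83 on the log2 scale, with no overlap of groups in either. Of 5 tested other P450 genes, outside the chosen families, 1 rose, against 20.6% of all genes tested. This was Cyp39a1, which hydroxylates an oxysterol (log2 fold change 1.96 ± 0.41 (SE), edgeR adjusted p = 0.00775), at 1.24 without mutants 2 and 3 (edgeR adjusted p = 0.0126). Among 12 tested transporters, 2 rose and 1 fell, against 20.6% and 11.8% of all genes tested. Abcc3, which exports conjugates, averaged 80.4 ± 24.1 CPM in mutants and 24.7 ± 7.79 CPM in controls (SD, n = 5 and 4), with a log2 fold change of 1.70 ± 0.29 (SE), edgeR adjusted p = 0.00398. Abcc5, an exporter of organic anions, averaged 13.1 ± 3.43 CPM in mutants and 25.8 ± 3.47 CPM in controls (SD, n = 5 and 4) and fell, with a log2 fold change of -0.98 ± 0.21 (SE), edgeR adjusted p = 0.00883.

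**Figure D5:**
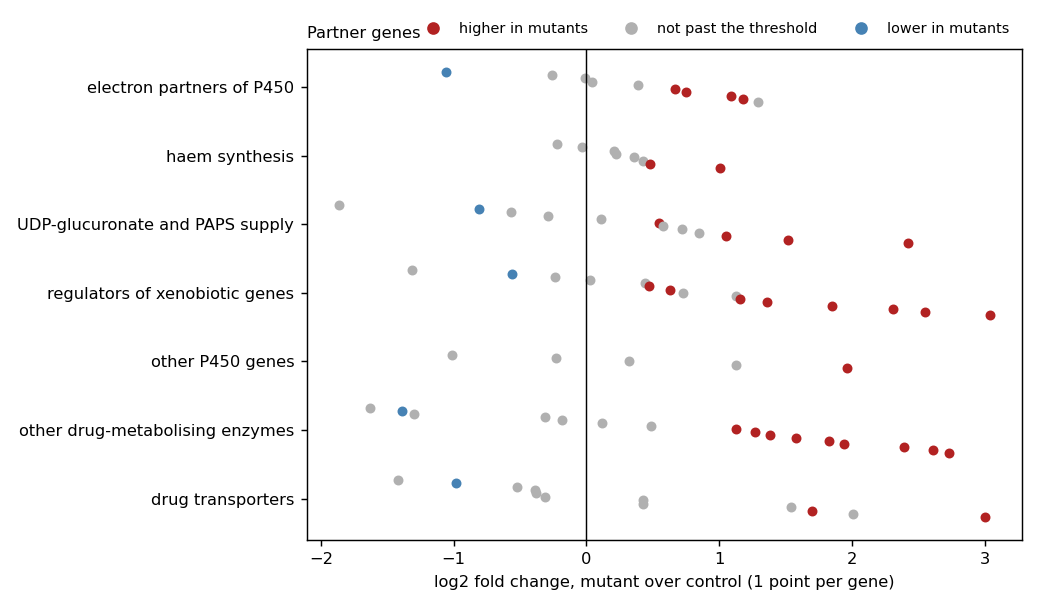
Log2 fold change of mutant over control for the tested genes of 7 lists, 1 point per gene, with higher and lower calls and uncalled genes set apart. The lists hold genes that serve or regulate the enzyme families and other enzymes and transporters that act beside them. Higher calls outnumber lower ones, 30 against 5 of 78 tested genes.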

How the data were processed

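Polyadenylated islet RNA of 5 mutant and 4 control libraries was measured by sequencing, and groups and replicate numbers came from sample titles and genotypes. The authors deposited whole-number counts per gene symbol without normalization. Per the submitters' processing notes, the project used mm10 and, with no roles stated, RSEM, STAR, Bowtie2, HOMER, DESeq2, R 4.1.0, Signac, Seurat and Cell Ranger. Aligner, counter, annotation and strand setting are not given in the sources used here. Paralogs, overlapping genes and antisense partners may therefore share reads. Totals of 6092010 to 9163253 counts limit precision for low genes, and reads carry no molecular identifiers, so floors cover counting error only. No library pair within a group matched within sampling noise (lowest chi-square per degree of freedom 18.1).

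The contrast of mutant over control was fitted on all 9 libraries with the quasi-likelihood F test of edgeR 4.0.16 under R 4.3.3, after filterByExpr and TMM scaling, two-sided, with Benjamini-Hochberg adjustment over 12402 genes and a threshold of 0.05. Library sizes for CPM were TMM-scaled, and a prior count of 2 was added before log2. Coordinates came from GENCODE M21 (GRCm38) by symbol, which placed 134 of 138 members, with 1 more placed from RefSeq. Transcript uniqueness used 50-base stretches. The pipeline was tested on simulated data.

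The members, gene lists and tests were chosen with earlier results of these data known. Named were all tested members, untested ones with at least 20 counts, and up to 4 genes of lowest adjusted p per partner list with a few fixed genes. A planned description of genes most like Cyp2c70 and Ces2c was left out, since the libraries fall into separate clusters. Of 116 listed partner genes 115 were found, Cyb5a was not analysed here, and some genes in the counts and 1 searched motif are not reported here. Alternatives were RLE scaling, no filter, a looser filter (4 libraries over 1 CPM), the replicate number as a block, DESeq2 1.42.0, limma-voom (limma 3.58.1), endocrine or acinar score as covariate, and fits without each library or without mutants 2 and 3.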

Additional observations from a re-analysis of the deposited data

Results flagged for a closer look

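Within-group gaps were examined for the 28 tested members in both groups, 56 groups of libraries in all, and 3 had a library far from the rest, where chance gives about 1 in 20. Ces2g in mutant 1 stood at a log2 CPM of 3.42, below the 4.43 to 4.80 of the other mutants. Cyp2u1 in mutant 1 stood at -1.38, below the 0.09 to 0.52 of the other mutants. That value came from 1 count, against 6 to 8 counts in the other mutants. Sult2b1 in control 3 stood at 2.53, below the 2.88 to 2.95 of the other controls.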

How the results depend on the processing

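The 14 members called higher were 13 under RLE scaling and with no filter, 15 with DESeq2 and with a looser filter (CPM of at least 1 in 4 libraries), 10 with limma-voom, and 8 without mutants 2 and 3. They were 5 with the endocrine covariate and 0 with the acinar covariate. Leaving out 1 library gave 9 to 14, the lowest without control 1. The 13 with no filter stood among 78 members tested, and 12 of them were among the 14. In that fit 12% of 17564 genes were called higher. Cyp2r1 (edgeR adjusted p = 0.0511) and Ugt2b34 (edgeR adjusted p = 0.0639) were not called in it. The 1 member called lower became 3 under RLE scaling, 6 with DESeq2, 3 with limma-voom, 2 without mutants 2 and 3, and 0 with either covariate, and leaving out 1 library gave 1 to 3. Partner genes numbered 30 higher, against 11 and 0 with the endocrine and acinar covariates and 20 to 30 when 1 library was left out. The 5 lower partner genes became 13 with DESeq2, 10 with limma-voom, 0 with either covariate, and 4 to 10 when 1 library was left out (10 without mutant 1, 9 without mutant 2). Over all genes, RLE scaling gave 2156 higher and 2006 lower calls (51.8% higher) and DESeq2 49.6% higher, against 63.6% in the edgeR fit. With the replicate number as a block, 10 members were higher and 1 was lower, and 19 partner genes were higher and 4 lower. Replicate numbers did not pair the libraries (correlations of 0.05, -0.02, 0.18 and -0.05 for numbers 1 to 4), so the block shares only a number.

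With the acinar score as a covariate, which the group nearly determines, no gene was called. Among members called higher, Ces2g (2.03), Cyp1a1 (1.56), Ces2c (0.96) and Cyp4f13 (0.06) kept the sign of the log2 fold change, as did Cyp4f39 (-1.03). The sign was opposite in the others, at -1.48 for Ces1e, -0.22 for Cyp2b10, -2.39 for Cyp2c70, -0.23 for Cyp2j6, -0.56 for Cyp2r1, -3.83 for Cyp2s1, -0.72 for Cyp3a13, -1.11 for Ugt2b34, -0.77 for Ugt2b35 and -3.63 for Ugt2b36. Partner genes of opposite sign stood at -0.31 for Alad, -0.50 for Urod, -0.25 for Ugdh, -1.81 for Slc35d2, -0.87 for Nr0b2, -0.85 for Cyp39a1, -0.08 for Ephx1, -0.49 for Cbr3, -0.78 for Cbr1 and 0.43 for Abcc5. For the members named here the edgeR adjusted p was 0.96 to 0.998, so this fit does not settle the sign of any. The cause was not tested. Over 52 genes and 18 settings, 787 values kept their direction and side of the threshold or were uncalled in both fits, 94 lost and 23 gained the call. At this depth 110 members did not pass the filter.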

Other observations

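Controls 3 and 4 were the 2 highest controls for 11 of the 28 tested members, among them Cyp1a1, Cyp2b10, Ces2c and Ces2g, against 22.9% of all genes tested. Among genes called higher the share was 42.9% of the 14 members and 40.4% of all 2560 genes. Macrophage markers also summed to 392 to 468 CPM in these controls, against 84.3 to 93.0 CPM in controls 1 and 2. They summed to 311 to 564 CPM in mutants, and 0 of 9 tested macrophage genes were called. The ductal, endothelial, stellate and fibroblast, hepatocyte and enterocyte lists likewise had their 2 highest control sums in controls 3 and 4. The acinar, endocrine secretory and hormone lists did not. A link of any list to the members' pattern was not tested. Of the members, 13 had counts in mutants and in no control, with at most 54 counts in all, and 8 had counts in controls and in no mutant, with at most 5.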
